A study of Saccharomyces cerevisiae with 2 samples.

Results

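The features described here are 66 protein-coding rows, out of 2032 with reads in either library. Summed over the 66, their reads lay almost wholly on the strand opposite the reading frame. They were chosen from the counts: at least 5 antisense reads over both libraries, no sense read in the tagged Bud22 library and fewer than 10 sense reads in the untagged control. Ribosomal protein genes (RPL, RPS and RPP), Ty reading frames, TAR1, YLR162W, RRT15 and names starting with YLR154 were left out, which removed 29 Ty frames and 4 other rows that met the count limits. The antisense and sense counts of these features are therefore a description of what was chosen, and none of them is tested.

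The assay was CRAC, a crosslinking and cDNA method, in budding yeast, in which RNA crosslinked to a tagged protein is purified and sequenced. The Bud22 library came from cells whose Bud22, a nucleolar factor of small ribosomal subunit assembly, carried a histidine, TEV site and protein A tag (genotype Bud22-HIS-TEV-proteinA). The control library came from untagged cells (genotype W303 wildtype). Both cultures grew in YPD to an OD600 of 1.0, were held for 4 h in medium that lacked uracil and contained 4-thiouracil, and were irradiated at 365 nm for 30 min. For the control, the description of growth mentions the tagged strain while genotype and title read wild type, and the genotype was followed. With 1 library per group there is no replicate error and no p-value, and each comparison is between these libraries. Sense reads over named features summed to 215982 with Bud22, against 132895 in the control, on 5920 and 37130 distinct read entries. That is 36.5 reads per entry with Bud22 and 3.58 in the control. These sums of sense reads exceed the mapped reads, 188065 with Bud22 and 97270 in the control. Some reads are therefore counted at more than 1 feature, and the read ratios below are relative to such sums.

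Yeast genes are packed closely, and many neighbours lie on opposite strands with their ends facing each other, so that the untranslated end of one transcript can run into the next annotation. Systematic sequencing also named many short reading frames that lie across another gene on the other strand, and a number of these are now held to be dubious. A read counter that scores each read against every annotation on both strands counts such a read as sense for its own gene and again as antisense for the feature opposite. Cryptic unstable transcripts (CUTs) and stable unannotated transcripts (SUTs) are noncoding RNAs of RNA polymerase II that often run antisense to reading frames.

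The 66 features held 8727 antisense reads with Bud22, against 2615 in the control. That was 81.9% of all antisense reads at protein-coding rows with Bud22 and 26.4% in the control, where Ty frames and frames within the ribosomal DNA are counted in the total. Sense reads were 0 with Bud22, by the rule, and 39 in the control, so antisense reads made up 98.5% of the control reads (exact Clopper-Pearson 95% interval 98.0 to 99.0). In the control 16 features had a sense read, with a highest count of 9 at HIS4, and for 4 features (PTR2, EDC1, RFU1 and SWI4) control sense reads outnumbered control antisense reads. These shares follow from the limits that chose the features.

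Reads of single features ranged from 5 to 8267 over both libraries, with a median of 10. There were 8 features with at least 100 reads and 31 with fewer than 10. At the edge of the rule, 15 features had exactly 5 antisense reads, and 22 further rows with 4 antisense reads met the same sense limits and were not included. Antisense reads were present in both libraries for 21 features, with Bud22 only for 7 and in the control only for 38. Among all protein-coding rows, 47 had antisense reads with Bud22 and 408 in the control. The control also had more distinct entries over named features, 37130 against 5920 with Bud22. The rule lets a feature pass on the reads of either library alone. Nothing is therefore read from the numbers of features with reads in each library, here or in the groups below.

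**Figure D1:**
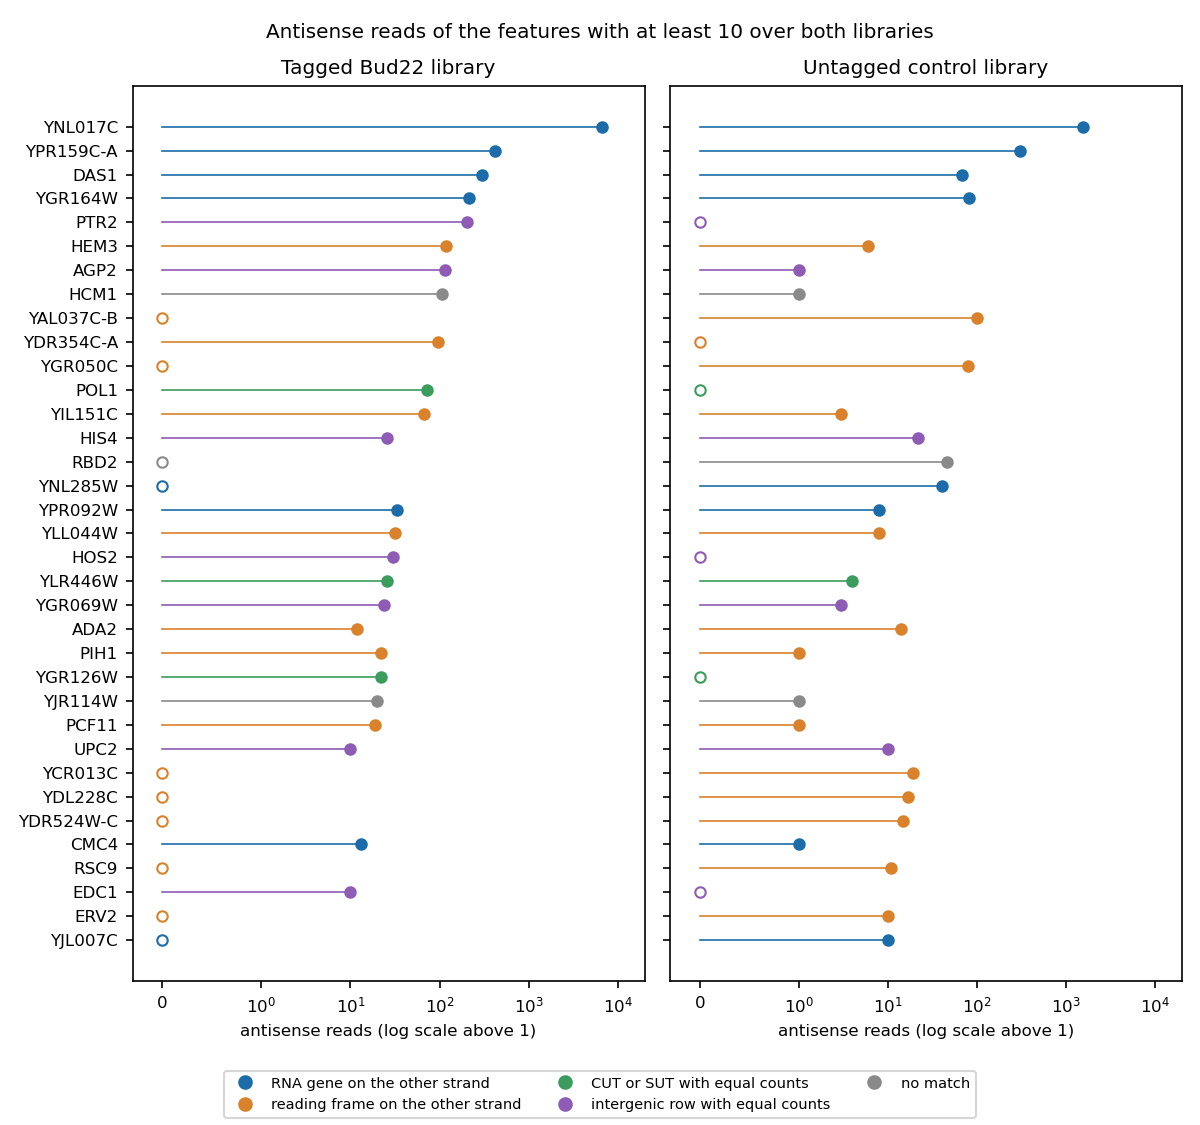
Antisense reads (horizontal axis, log scale above 1, open circles at 0) of the 35 features whose summed count reached 10, in the tagged Bud22 library (left) and the untagged control (right), ordered by their sum and coloured by the kind of match. YNL017C stands above all others in both libraries with 6710 and 1557 reads, and 10 features have reads in the control panel alone.

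To relate the features to what lies opposite, each was set beside the genes on the other strand in the R64 reference table, and the sense counts of those genes in the same libraries were compared with the antisense counts of the feature. Of the 66 features 47 are in that table. Another 18 were placed by their systematic name, between the listed frames with the next lower and next higher number on the chromosome arm. The last, FLP1, the recombinase gene of the 2-micron plasmid, could not be placed. A gene within 500 bases, or between the flanking frames, was taken as the partner where its sense reads equalled the feature's antisense reads in both libraries, with equal entries where these could be compared, or where it had at least as many in both. The partner is thus picked by its counts, and equal counts are the only part of the match that the placing did not fix.

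A partner was found for 35 features, with 34 different partners since PGK1 serves 2 features. For 25 features the counts were identical in both libraries, for 1 they equalled the sum of a pair of neighbouring genes, and for 9 the partner had more reads. None of the 47 features in the table had a gene on its own strand within 500 bases whose sense counts equalled its antisense counts, whereas 14 of the 47 had such a gene on the other strand. Among the other 64 protein-coding rows with at least 5 antisense reads, 0 had an identical partner and 6 had any partner. Of these 64 rows, 33 were left out by name and 31 exceeded the sense limits, so this is a description of different kinds of rows. Of the identical matches 15 rest on at least 10 reads, and for 12 of these no other named row of the files had the same counts. The other 10 rest on fewer than 10 reads. The 9 reads of RFU1 stood at 1 named row, its partner YLR072W. For each of the remaining 9 features, between 8 and 160 named rows, the partner included, had the same counts, so equal counts say little there.

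**Figure D2:**
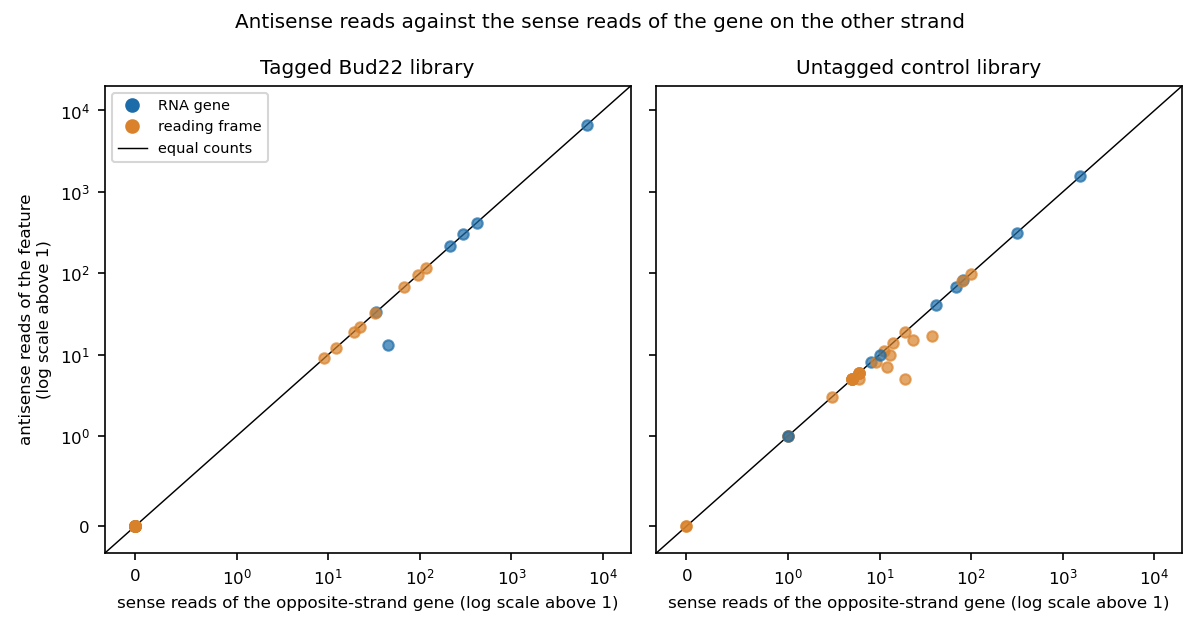
Antisense reads of the 35 features with a partner (vertical axis) against the sense reads of the opposite-strand gene (horizontal axis), both on a log scale above 1, in the tagged Bud22 library (left) and the untagged control (right). Points lie on the line of equal counts or to its right, which the choice of partners fixes, and 25 features lie on the line in both panels, as does YPR092W set against the sum of its pair of genes.

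RNA genes were the partner of 8 features, and these held most of the antisense reads. They took 7687 reads with Bud22, which is 88.1% of the reads of all 66 features, and 2075 in the control, which is 79.3%. Transfer RNA genes were the partner of 5 of them, with 7342 reads against 1998, and small nucleolar RNA (snoRNA) genes of 3, with 345 against 77.

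YNL017C, a frame that the R64 table does not list, had 6710 antisense reads on 102 entries with Bud22, against 1557 on 189 entries in the control. It alone held 76.9% of the reads of the 66 features with Bud22 and 59.5% in the control. Its name places it between YNL018C and PUB1, where the table has a tRNA gene on the other strand. The isoleucine tRNA row tI(AAU)N2 had the same 6710 and 1557 sense reads on the same 102 and 189 entries, and no other row of the files did. The nearest copy in counts, tI(AAU)N1, had 6710 and 1555 reads on 103 and 189 entries. The 13 rows of this tRNA family held between 6707 and 11132 sense reads each with Bud22 and between 1554 and 3332 in the control. Relative to the sense reads over named features, the YNL017C share was 2.65 times as high with Bud22 (exact interval 2.51 to 2.80), and 3.38 by entries (2.63 to 4.33). Those sense reads include all 13 rows of this tRNA family.

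YPR159C-A, a short frame, had 419 antisense reads on 20 entries with Bud22 and 308 on 52 entries in the control. In R64 it overlaps 1 tRNA gene on the other strand, which the table lists without an anticodon. Among the tRNA rows of that chromosome the nearest in counts was the glycine tRNA tG(GCC)P2, with 421 reads on 22 entries and 318 on 57, and the other copy on that chromosome, tG(GCC)P1, had 436 and 312. The name of this partner rests on that nearness. The share of YPR159C-A was 0.837 of the control by reads (0.721 to 0.973) and 2.41 by entries (1.36 to 4.11), so reads and entries differ in direction.

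YGR164W had 213 antisense reads on 7 entries with Bud22 and 82 on 27 entries in the control, and spans a whole tRNA gene on the other strand. These values recurred at 7 rows of the arginine tRNA family tR(UCU), of which tR(UCU)G1 and tR(UCU)G2 carry the letter of its chromosome. The ratio was 1.60 by reads (1.23 to 2.09) and 1.63 by entries (0.598 to 3.83).

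The other features opposite a tRNA had no reads with Bud22. YNL285W had 0 reads against 41 on 20 control entries, and the glycine tRNA gene SUF6 had the same. YJL007C had 0 against 10 on 5 entries, as did EMT3, an elongator methionine tRNA gene that lies within it. The same reads stood at 8 tRNA rows, EMT4 among them, and EMT3 was named by its place. Against a floor of 3 counts in the Bud22 library, the read share of YNL285W was at least 22.2-fold lower with Bud22 and that of YJL007C at least 5.42-fold lower. Such a bound leaves out the counting error of the other library, and the exact intervals allowed ratios of up to 0.0579 and 0.275. By entries the ratio had an upper limit of 1.27 for YNL285W and 6.84 for YJL007C, and both intervals include equal shares.

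The partners of DAS1, CMC4 and YPR092W were snoRNA genes. In R64 those of DAS1 and CMC4 lie beside the feature without overlap, and YPR092W was placed by name only. DAS1, which encodes a putative F-box protein of a ubiquitin ligase, had 299 antisense reads on 16 entries with Bud22 and 68 on 23 entries in the control. SNR128, the U14 box C/D snoRNA needed for release of 18S rRNA from its precursor, had exactly these counts on its own strand. Its ratio was 2.71 by reads (2.07 to 3.57) and 4.36 by entries (2.15 to 8.63). SNR190, the snoRNA made together with U14, had 31 sense reads against 11, and these did not appear in the DAS1 count.

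CMC4, a gene for a mitochondrial intermembrane space protein, had 13 antisense reads on 1 entry with Bud22 and 1 in the control. SNR11, a box H/ACA snoRNA, lies within 500 bases on the other strand and had 45 sense reads on 2 entries with Bud22 and 1 read in the control. The count of CMC4 is thus below that of SNR11 with Bud22 and equal to it in the control, where it is 1 read. Whether these are the same reads was not tested. YPR092W had 33 antisense reads on 1 entry against 8 on 5 entries. No single gene opposite had these values, but the box C/D snoRNAs SNR51 (33 reads on 1 entry against 1 on 1) and SNR70 (0 against 7 on 4) add up to them. SNR41, in the same interval, had 0 against 30 reads on 13 entries and is not part of that sum.

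As a group the 8 features opposite RNA genes had a ratio of 2.28 by reads (2.17 to 2.39) and 2.86 by entries (2.34 to 3.49). Without YNL017C the 7 others had 977 reads against 518. Their ratio was 1.16 by reads (1.04 to 1.29) and 2.12 by entries (lower limit 1.48). Whether copies of a tRNA share reads was not tested.

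Reading frames were the partner of 27 features, with 373 antisense reads for Bud22 against 349 for the control. Bud22 reads were present at 8 of these 27 features and control reads at 25. The ratio was 0.658 by reads (0.567 to 0.763) and 2.05 by entries (1.34 to 3.06), so the direction depends on which is counted. It rests on few features by reads: without YAL037C-B it was 0.918 (0.780 to 1.08), and without HEM3 it was 0.459 (0.389 to 0.542). By entries it was 1.36 without HEM3 (0.804 to 2.19).

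Among those with reads in the Bud22 library, HEM3, the porphobilinogen deaminase gene of heme synthesis, had the most. It had 117 antisense reads on 12 entries with Bud22 and 6 on 4 entries in the control, identical to the sense counts of its neighbour YDL206W. The ratio was 12.0 by reads (5.35 to 33.4) and 18.8 by entries (5.70 to 80.04). YDR354C-A, a frame opposite the tryptophan synthesis gene TRP4, had 95 reads on 2 entries against 0, and TRP4 had the same sense counts. YIL151C (ESL1) had 67 on 4 entries against 3 on 2, as did the sense strand of YIL152W. These 3 features held 279 of the 373 Bud22 reads of the group.

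The remaining frame-matched features with Bud22 reads had lower counts. ADA2, a subunit of the SAGA histone acetyltransferase, had 12 reads on 4 entries against 14 on 12 entries, identical to UTP6, whose product is a part of the small subunit processome. PIH1, a subunit of the R2TP chaperone complex, had 22 on 3 entries against 1, identical to YHR033W. PCF11, an mRNA cleavage and polyadenylation factor, had 19 on 4 entries against 1, identical to the silencing gene SIR4. RFU1, an inhibitor of the ubiquitin protease Doa4, had 9 on 1 entry against 0, and YLR072W (LAM6) had 9 sense reads on 1 entry. YLL044W had 32 reads on 3 entries against 8 on 2, and the ribosomal protein gene RPL8B opposite it had 32 on 3 entries against 9 on 3. Each of these 8 features had a neighbour with the same Bud22 reads. The search for partners preferred equal counts, and features without a neighbour of enough reads fell to other groups.

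The frame-matched features with most control reads had none with Bud22. YAL037C-B had 0 reads against 99 on 9 entries, identical to the pyruvate kinase gene CDC19. YGR050C had 0 against 80 on 2 entries, identical to SCM4. YCR013C had 0 against 19 on 10 entries, identical to the phosphoglycerate kinase gene PGK1, and POL4, a DNA polymerase gene whose end faces that of PGK1, had 0 against 5. YDL228C had 0 against 17 on 8 entries, and SSB1, the ribosome-associated chaperone gene opposite it, had 0 against 37 on 16 entries. The snoRNA row SNR79, which is no neighbour of YDL228C, had the same 17 reads on 8 entries. Of the 17 genes listed for glycolysis and translation elongation 3 were partners (CDC19, PGK1 and GPM1), for 4 features with 0 reads against 129. YAL037C-B held 99 of the 129. The counts of YKL153W, matched to GPM1, stood at 8 named rows and those of POL4 at 65. Of the 11 listed heat shock genes SSB1 was the only partner. Ribosomal protein genes were the partner of 5 features, with 32 reads against 30. No share over all genes is set beside these numbers of partners, so nothing is read from them.

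Some features with low counts had more than 1 candidate opposite. YLR076C, with 0 reads against 5 on 2 entries, had the counts of FMP25, while RPL10 in the same interval had 0 against 6 on 3 entries. The 13 other frame-matched features without Bud22 reads had between 5 and 15 control reads. YCR013C, POL4, YDL228C and YLR076C were named after their values were seen, as were FLP1 and the YRF1 genes.

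Of the 35 partners, 4 lie across their feature in R64, 16 lie beside it without overlap and 15 were placed by name only. Any overlap with a gene on the other strand in R64 was present for 5 of the 47 features in the table, 10.6%, against 33 of 1927 protein-coding rows of the files in the table, 1.71%. The R64 spans are mostly coding sequences, and the sources used here do not give the annotation on which reads were counted. Features absent from R64 made up 19 of the 66, 28.8%, against 105 of the 2032 protein-coding rows, 5.17%, and 15 of the 19 had a partner. The lengths of the 47 listed features ranged from 90 to 6837 bases with a median of 1383, and the median of all listed protein-coding rows was 1368. Frames under 400 bases made up 17.0% of the 47 and 6.28% of all.

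**Figure D3:**
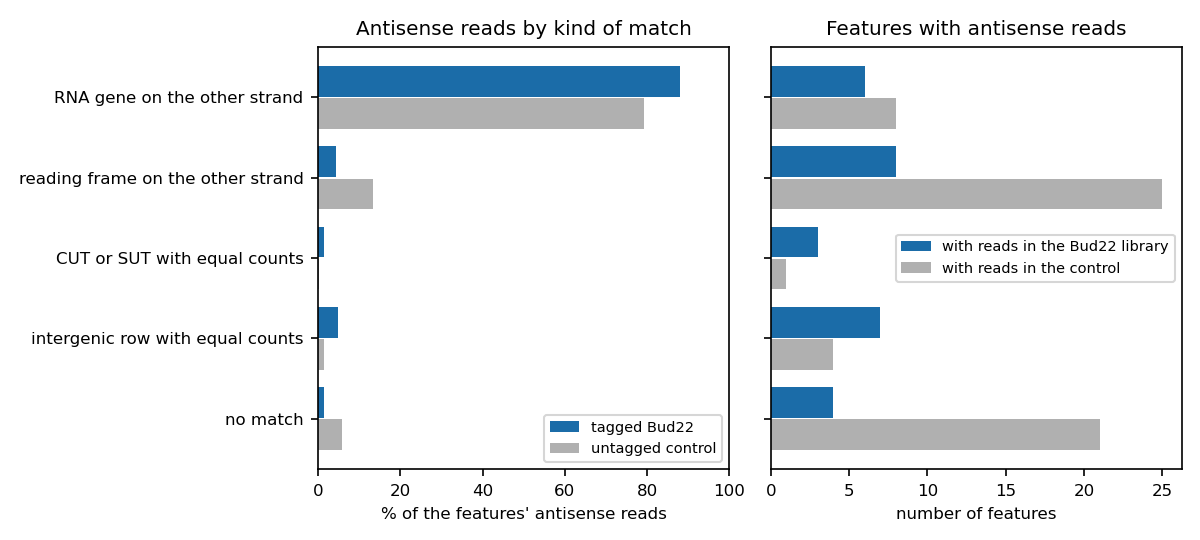
Left, percentage of the antisense reads of the 66 features that fell to each kind of match in the tagged Bud22 library (blue) and the untagged control (grey). Right, number of features of each kind with antisense reads in each library. Features opposite RNA genes hold 88.1% of the reads with Bud22 and 79.3% in the control, on 8 features.

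The 31 features without a partner gene held 667 antisense reads with Bud22 and 191 in the control. They fell into 3 kinds by their counts. Low counts stood at many rows and so seldom had a single match. The ratios of the 3 kinds therefore partly follow from this sorting and from the limits that chose the features. Nothing is read from the differences between them. For 3 features a CUT or SUT row had the same counts and no other named row did, although these transcripts have no position in the files. POL1, the catalytic subunit of DNA polymerase alpha, had 72 antisense reads on 1 entry against 0, as did CUT812 on its sense strand. YLR446W (NGK1) had 26 on 2 entries against 4 on 2, as did SUT711. YGR126W had 22 on 6 entries against 0, as did CUT618 and also 1 intergenic row. Together they had 120 reads against 4. The ratio was 18.5 (7.02 to 68.8), or 7.38 without POL1 (2.70 to 28.2).

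For 7 features the same counts stood at a single intergenic row and at no named feature. These rows were matched by counts alone, and their strand and nearness to the feature were not checked. Control entries were not compared for PTR2, HIS4 and EDC1, which had control sense reads. PTR2, the gene of the di- and tripeptide transporter, had 203 antisense reads on 8 entries with Bud22, against 0 antisense and 2 sense reads in the control. With a floor of 3 control counts, its share was at least 41.6-fold higher with Bud22, and the exact lower limit of the ratio was 33.6 by reads and 10.7 by entries. The only gene opposite within 500 bases, RPL40B, had 0 against 3 sense reads. AGP2, a regulator of polyamine and carnitine uptake, had 114 on 6 entries against 1. HOS2, a histone deacetylase gene, had 30 on 2 entries against 0, and YGR069W had 24 on 7 entries against 3 on 3. HIS4, an enzyme of histidine synthesis, had 26 on 1 entry against 22. UPC2, a sterol-responsive transcription factor, had 10 on 2 entries against 10 on 8, and EDC1, an activator of mRNA decapping, had 10 on 2 entries against 0.

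Of these 7 features HIS4 and UPC2 had similar counts in both libraries and the other 5 had most or all of their reads with Bud22. Together the 7 held 417 reads against 36. Their ratio was 7.13 by reads (5.06 to 10.3) and 8.78 by entries (4.77 to 16.4). Without PTR2 the ratio was 3.66 by reads (2.56 to 5.36) and 6.27 by entries (3.20 to 12.3).

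No single match of these kinds was found for 21 features, with 130 reads against 151. Except for HCM1, the counts of each stood at more than 1 other row, so none could be named. HCM1, a forkhead transcription factor of S phase, had 106 antisense reads on 4 entries with Bud22 and 1 in the control, and no gene on the other strand within 500 bases. Without HCM1 the 20 others had 24 reads against 150 and 9 entries against 78. The ratio was then 0.0984 by reads (0.0612 to 0.152) and 0.724 by entries (0.319 to 1.45). YJR114W had 20 on 5 entries against 1, values that stood both at SUT647 and at the reading frame YOR333C of another chromosome. RBD2, a gene for a putative rhomboid protease, had 0 against 46 antisense reads and 3 sense reads on 8 entries. CUT403 had the mirror image of these control counts, 46 sense and 3 antisense reads on 8 entries, although 4 other named rows also had 0 sense reads with Bud22 and 46 in the control. PMI40, an enzyme of mannose metabolism, and SWI4, a transcription factor of the G1 to S transition, each had 2 antisense reads on 2 entries with Bud22 and 4 in the control. Their control sense reads were 1 at PMI40 and 6 at SWI4. The other 16 had no Bud22 reads and between 5 and 8 in the control. They include the 3 telomeric helicase genes YRF1-1, YRF1-5 and YRF1-8, near-identical copies with the same 6 reads on 5 entries.

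Over all 66 features the antisense share of the Bud22 library was 2.05 times that of the control by reads (1.97 to 2.15) and 2.75 by entries (2.35 to 3.22). It was 1.30 relative to sense totals without rRNA and 3.27 relative to the antisense total of named features. Without YNL017C the ratio was 1.17 by reads (1.09 to 1.26) and 2.40 by entries (1.94 to 2.95). Single features were called where they had 10 or more reads, differed by 2-fold or more and had an interval that left out 1. Of 35 features with at least 10 reads 20 were higher with Bud22 and 10 lower, and 5 were neither. Over all 99 protein-coding rows with that many antisense reads, 21.2% were higher and 70.7% lower. By entries, 10 of the features reached the same minimum, and 5 were higher, 0 lower and 5 neither. The limits on sense reads helped choose the features, and a feature could pass the minimum through its reads in 1 library alone, so nothing is read from these counts. All 10 lower features had no Bud22 read, 6 of the 20 higher ones had no control antisense read, and 7 of the 20 rest on at most 2 Bud22 entries. For each of the 10 lower features the entry interval included 1, with upper limits from 1.27 (YNL285W) to 33.4 (YGR050C).

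Reads per entry of the 66 features were 37.9 with Bud22 and 4.99 in the control. Of the 28 features with Bud22 reads, 12 had them on 1 or 2 entries and 5 on 1 entry. A single entry gave from 9 reads at RFU1 to 72 at POL1. The read intervals above treat reads of 1 entry as independent.

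**Figure D4:**
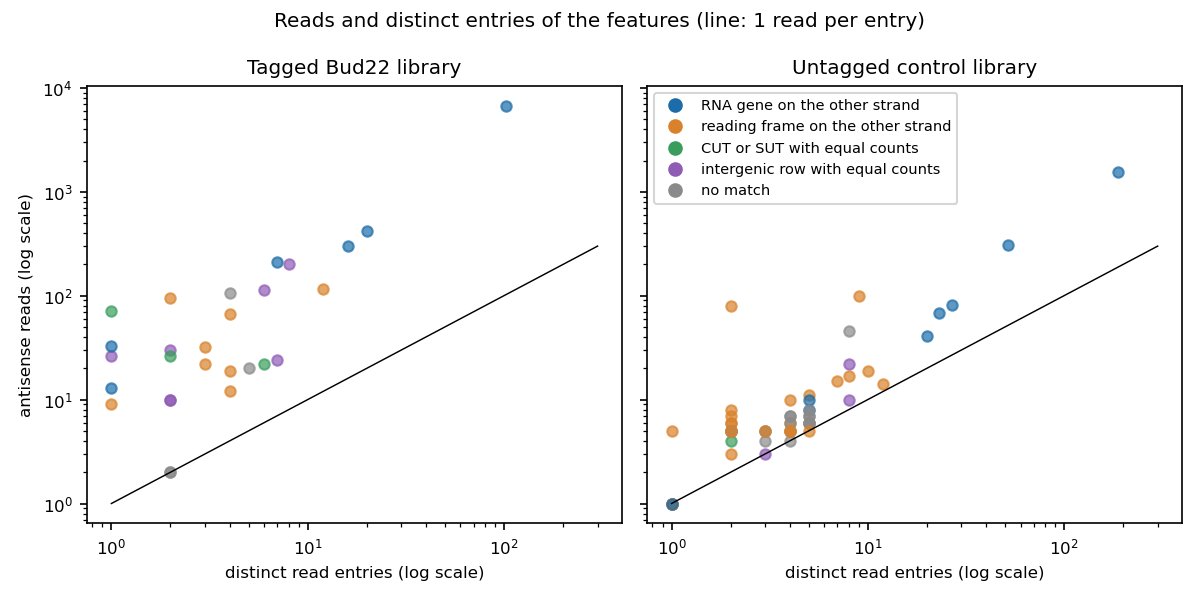
Antisense reads (vertical axis, log scale) against distinct read entries (horizontal axis, log scale) for the features with antisense reads in the tagged Bud22 library (left, 28 features) and the untagged control (right, 59 features), with a line at 1 read per entry. Most features of the Bud22 panel lie far above the line, such as POL1 with 72 reads on 1 entry, and most of the control lie close to it.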

How the data were processed

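Per the file headers, the authors deposited raw read counts per annotated feature from pyReadCounters (Counters 1.2.1), with sense and antisense reads in separate columns. A further column, headed as a number of reads, was taken from its values to hold distinct read entries over both strands. The sources used here do not state the aligner settings, the genome build or the annotation release, and coordinates are therefore left out. Each library's depth is its sense count over named features. Totals leave out intergenic rows.

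Of 2635 named rows 2083 matched the R64 table (RefSeq), which was used for names and neighbours only. BUD30 and OPI11 were placed by their known systematic names, and the Ty frames were listed by name. Ratios are shares of the sense total with exact conditional binomial 95% intervals, computed with scipy 1.17.1 in Python 3.11.15. Intervals and floors of 3 counts cover counting error only. A control entry count was limited to the antisense count, and for features with control sense reads it may include sense entries. The partner search was run on simulated reading frames in R64, whose opposite neighbour had either equal counts or no reads. That simulation did not cover placing by name, partners with more reads, sums of a pair or tRNA rows. The intervals were checked on simulated independent counts, which leave out reads that share an entry. With over 30 features, the named ones are the 15 with most antisense reads, those opposite RNA genes and those with Bud22 reads, with others named after their values were seen. The features, lists and tests were chosen with earlier results of these data known. The rule that picks a partner by counts was added after the counts were seen.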

Additional observations from a re-analysis of the deposited data

How the results depend on the processing

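Over all features, the ratio of 2.05 was 2.75 by entries, 3.27 over the antisense total of named features, 1.73 over mapped reads, 1.30 over sense totals without rRNA and 1.17 without YNL017C, with 2.07 for 1 value per partner. In divisions added after seeing the data it was 2.28 opposite RNA genes, 2.15 for features with neither kind of partner, and reversed to 0.658 opposite reading frames. The ratio stayed above 1 in the others named here. A minimum of 3 antisense reads gave 149 features and a minimum of 10 gave 35, in place of 66, and no control sense reads gave 50. An R64 overlap was present for 5 features (4 with at least 30 bases, and 4 with enough partner reads), 22 with a gene within 250 bases, and 35 with the count match used here, as also within 300 and 1000 bases. The control antisense share was 96.4% without YNL017C, in place of 98.5%. No paired analysis was possible because each group has 1 library. Depth limits every feature on 1 or 2 entries, where reads say little about the number of molecules.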
